A study of Homo sapiens with 9 samples.

Results

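The IL-6 family and colony-stimulating factor genes described here are 10 genes picked by symbol: the ligands IL6, LIF and IL11, the ligands CSF1, CSF2 and CSF3, the receptor chains IL6ST, LIFR and OSMR, and the feedback inhibitor SOCS3. All 10 were found among the 58735 genes of the count tables, each at 1 row, and all 10 passed the filter on low counts that left 16188 genes for testing. RNA was sequenced from MDA-MB-231, a human triple-negative breast cancer cell line with mesenchymal features, in 9 libraries of 3 groups. The vehicle group was treated with DMSO, the erastin-R group had survived rising amounts of erastin, and the RSL3-R group had survived rising amounts of RSL3, with 3 libraries in each and the DMSO libraries serving both comparisons with vehicle. Erastin blocks cystine import by system xc-, RSL3 inactivates the lipid peroxide reductase GPX4, and both induce ferroptosis, an iron-dependent death by lipid peroxidation. The labels give neither the drug concentrations nor the duration for these libraries, and the labels do not say whether the 3 libraries of a group came from separate cultures. The study states that its in vitro experiments were done in triplicate and repeated, without tying this to the libraries, so p values measure the spread between these libraries, which may be technical. The cells are survivors of 1 line, so RNA changed within cells and a shift in which cells remained cannot be told apart in these bulk samples.

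The library totals lay between 15405102 and 17273464 counts. The 5 markers of the line (VIM, CD44, AXL, CAV1 and MSN) had a summed level of 815 to 885 FPKM (fragments per kilobase of gene, scaled to library size) in every library, whereas ESR1 and PGR, the hormone receptors that triple-negative cells lack, averaged at most 0.0392 and 0.00523 FPKM in any group. Single line markers moved within their steady sum. Mean CAV1 was 164 FPKM in vehicle, 74.4 in erastin-R and 91.0 in RSL3-R, and mean CD44 was 31.1, 27.8 and 23.2 FPKM. AXL went the other way, with 152, 227 and 201 FPKM. The 6 luminal or epithelial markers summed to 2.33 to 3.34 FPKM. Among them mean CDH1 was 0.183 FPKM in vehicle, 0.12 in erastin-R and 0.552 in RSL3-R. The 6 immune markers summed to 1.90 to 2.33 FPKM in vehicle, 0.696 to 1.09 in erastin-R and 1.57 to 2.20 in RSL3-R, and 5 endothelial and fibroblast markers to 2.94 to 3.19, 1.85 to 2.28 and 4.17 to 4.37 FPKM, with 1 immune marker at 0 in all erastin-R libraries. These sums differed between groups, and their part in the results was not tested. Single markers moved here too. In vehicle, erastin-R and RSL3-R the immune marker PTPRC averaged 0.0458, 0.0368 and 0.149 FPKM. The endothelial marker PECAM1 averaged 1.27, 0.227 and 1.64 FPKM. Erastin-R replicate 1 stood apart from the other erastin-R libraries on the third principal component (6.72% of the variance, scores of -35.7 against 14.4 and 13.0), so values without it are given where they matter.

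IL-6, LIF and IL-11 belong to a cytokine family whose receptors share the signal-transducing chain gp130, encoded by IL6ST. LIF signals through gp130 with the LIF receptor, oncostatin M through gp130 with OSMR, and IL-6 and IL-11 through gp130 after binding their own receptor, and all of them activate JAK kinases and STAT3, which induces the inhibitor SOCS3. CSF1 (M-CSF), CSF2 (GM-CSF) and CSF3 (G-CSF) drive the growth and activation of macrophages, granulocytes and their precursors, and tumour cells can secrete them. Many of these ligand mRNAs are short-lived because AUUUA repeats in their 3′ untranslated regions (UTRs) recruit decay proteins.

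The promoters of IL6, IL11 and CSF2 are shown because these were the 3 genes with the largest fold changes. Each is 300 bases of the RefSeq table (GRCh38.p14), from 250 bases before the start site, written 5′ to 3′ on the gene's strand, with motif matches in capitals. RefSeq promoters were found for 7 of the 10 genes. IL6 lies at chr7:22726950-22727249 on the plus strand, and its RefSeq start site is 1316 bases inside the GENCODE gene. IL11 lies at chr19:55370414-55370713 on the minus strand and CSF2 at chr5:132073539-132073838 on the plus strand.
IL6: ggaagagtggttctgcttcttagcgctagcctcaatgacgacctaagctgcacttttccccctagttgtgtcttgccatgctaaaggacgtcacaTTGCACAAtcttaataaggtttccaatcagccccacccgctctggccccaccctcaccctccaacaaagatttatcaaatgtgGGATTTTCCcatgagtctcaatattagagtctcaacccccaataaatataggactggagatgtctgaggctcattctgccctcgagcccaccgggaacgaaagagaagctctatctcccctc
IL11: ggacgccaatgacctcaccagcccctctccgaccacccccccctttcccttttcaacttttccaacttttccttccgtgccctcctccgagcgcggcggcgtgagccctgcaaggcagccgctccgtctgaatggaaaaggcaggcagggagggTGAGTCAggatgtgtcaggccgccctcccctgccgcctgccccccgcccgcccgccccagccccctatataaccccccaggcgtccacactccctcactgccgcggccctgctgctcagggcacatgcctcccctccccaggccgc
CSF2: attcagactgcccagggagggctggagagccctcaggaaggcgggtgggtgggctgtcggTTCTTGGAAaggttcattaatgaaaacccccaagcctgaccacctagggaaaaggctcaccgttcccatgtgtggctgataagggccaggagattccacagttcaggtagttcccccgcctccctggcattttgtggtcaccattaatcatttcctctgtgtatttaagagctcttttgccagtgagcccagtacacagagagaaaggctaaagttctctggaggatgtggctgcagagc

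Both strands were searched for an NF-kB motif (GGANTTTCC), a STAT motif (TTCNNNGAA), an AP-1 motif (TGANTCA), a C/EBP motif (TTNNGNAA) and an ATF4-C/EBP motif (TGATGNAA). The IL6 window held the NF-kB letters at position -72 from the start site, which 1.64% of the 35116 promoters in the table held anywhere, and the C/EBP letters at -155 on the other strand, which 36.8% held. In the IL11 window only the AP-1 letters were found, at -96 (7.71% of promoters), and in the CSF2 window only the STAT letters, at -190 (7.66% of promoters). None of these matches overlapped another, and the ATF4-C/EBP letters (3.62% of promoters) were in none of the 3 windows. These are letter matches and were not measured as binding sites.

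The AU-rich stretches are shown for the 6 ligands because these repeats are what the ligand mRNAs are known for. Each is the 30-base window of the 3′ UTR with the most ATTTA letters in the reference transcript, written as DNA with ATTTA in capitals.
IL6: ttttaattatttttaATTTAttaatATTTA
LIF: ATTTAttcaatgtcatATTTAaaatATTTA
IL11: ttccaaagccagatcttATTTATTTATTTA
CSF1: tttatataaagtcATTTAaatatctATTTA
CSF2: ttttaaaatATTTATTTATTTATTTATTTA
CSF3: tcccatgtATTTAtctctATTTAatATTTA

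ATTTA occurred 8 times in the 318 bases of the CSF2 3′ UTR, which was 25.2 per kilobase, and 6 times in the 427 bases of IL6 (14.1 per kilobase). IL11 held 9 copies in 1618 bases, CSF3 7 in 854, LIF 7 in 3204 and CSF1 4 in 2154, against a median of 1 copy over 19133 coding genes. At least as many copies as in IL11 were held by 12.05% of coding genes. That share was 14.42% for CSF2, 17.07% for LIF and CSF3, 20.6% for IL6 and 29.72% for CSF1. Neither the median nor these shares allow for UTR length. The longer decay motif TTATTTATT was present 6 times in IL11, 3 times in CSF2 and 2 times in LIF, was absent from IL6, CSF1 and CSF3, and occurred in 7.38% of the coding genes. The receptor UTRs held more ATTTA copies over greater lengths, with 29 in 6632 bases of LIFR (4.37 per kilobase), 23 in 5987 bases of IL6ST (3.84) and 8 in 2197 bases of OSMR (3.64), each denser than LIF (2.19) and CSF1 (1.86), and SOCS3 held 4 in 1640 bases (2.44). Among the receptors and SOCS3 the longer motif was found 2 times in OSMR and 1 time in LIFR, and not in IL6ST or SOCS3.

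On the scale per gene length, OSMR, CSF1 and IL6ST were the most abundant RNAs of the set in vehicle-treated cells, and CSF2, IL6 and CSF3 the least. Vehicle means were 49.6 FPKM for OSMR, 47.6 for CSF1 and 42.2 for IL6ST, then 16.4 for SOCS3, 14.8 for LIF, 10.3 for LIFR and 9.83 for IL11, and last 2.82 for CSF2, 2.81 for IL6 and 1.45 for CSF3 (n = 3 each). The ranges of the libraries overlapped between the neighbours OSMR and CSF1, LIFR and IL11, and CSF2 and IL6, and between no other neighbours.

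In erastin-R cells IL11 had the highest mean level of the set, at 44.6 FPKM (range 35.9 to 49.2), followed by CSF1 at 35.2 and OSMR at 35.0, and the ranges of these 3 genes overlapped. LIF (26.2), IL6ST (22.3) and SOCS3 (19.6 FPKM) followed with overlapping neighbours, then LIFR (7.72) and IL6 (7.58), which overlapped, and CSF3 (1.79) and CSF2 (1.38), which also did. In RSL3-R cells CSF1 led at 98.97 FPKM (95.3 to 103), above OSMR at 58.9, IL6ST at 42.8 and LIF at 24.6. SOCS3 (15.8) and IL6 (15.3 FPKM) overlapped there, while IL11 (13.3), CSF2 (10.3), LIFR (7.32) and CSF3 (2.44) were each separate from their neighbours. CSF2 thus stood last of the 10 in erastin-R cells and above LIFR in RSL3-R cells.

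**Figure D1:**
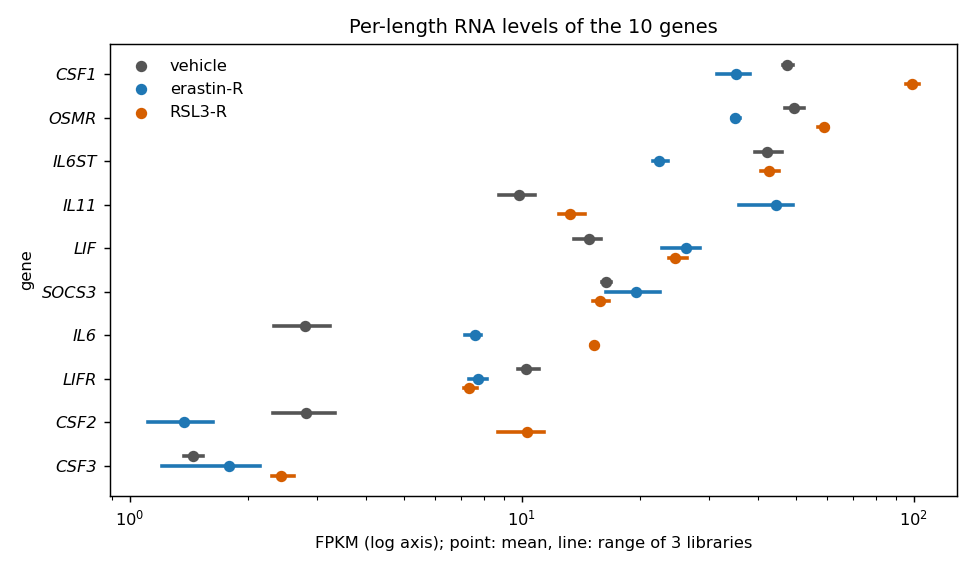
Level of each of the 10 genes in FPKM on a log axis, with the mean (point) and the range (line) of the 3 libraries of the vehicle (grey), erastin-R (blue) and RSL3-R (orange) groups. IL11 is far right in erastin-R (44.6 FPKM), CSF1 in RSL3-R (98.97 FPKM), and CSF2 spans 1.38 to 10.3 FPKM between the drug groups.

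Differences between groups were tested with edgeR's quasi-likelihood test, with p values adjusted by the Benjamini-Hochberg method over all 16188 genes. A gene is said to have risen or fallen when its adjusted p was under 0.05, and to be called when its log2 fold change was also at least 1 in size. The 10 genes were chosen with earlier results of these data known, so their counts describe them and do not test the set. In erastin-R against vehicle 9 of the 10 genes passed on adjusted p and 3 were called, 2 higher (IL6 and IL11) and 1 lower (CSF2). Of all genes tested, 54.0% passed on adjusted p, 6.70% were called higher and 6.66% called lower. In RSL3-R against vehicle 8 of 10 passed, and IL6, CSF1 and CSF2 were called, all higher, against 48.7% passing, 6.02% called higher and 4.08% called lower among all genes. In RSL3-R against erastin-R 7 of 10 passed, with CSF1 and CSF2 called higher and IL11 called lower, against 49.2%, 6.86% and 3.48%. That last split of all genes was 1111 higher and 563 lower, and 822 and 644 after quantile normalization. The median log2 fold change of the 10 genes was -0.07, 0.58 and 0.59 in these comparisons, beside 0.00, 0.01 and -0.02 over all genes.

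IL6 (ENSG00000136244, chr7:22725884-22732002, plus strand) encodes interleukin-6, the inflammatory cytokine that gave the family its name. It had 6.80, 5.93 and 4.87 CPM (counts scaled to the TMM-normalized library size) in the vehicle libraries, 16.2, 15.0 and 16.5 CPM in erastin-R and 32.3, 31.3 and 31.9 CPM in RSL3-R. The 3 groups did not overlap, with RSL3-R highest and vehicle lowest. IL6 rose 2.71-fold in erastin-R cells (log2 fold change 1.44, SE 0.12, adjusted p = 3.28e-07 by edgeR) and by 2.44 on the log2 scale in RSL3-R cells (SE 0.12, adjusted p = 1.49e-09). Between the drug groups RSL3-R was higher by 1.0 (SE 0.11, adjusted p = 4.43e-06), a value just under the limit for a call, which ranged from 0.96 to 1.04 over the alternatives. It reached the limit in 11 of them, among them those without vehicle replicate 1 (1.003), erastin-R replicate 1 (1.012) or 3 (1.022), and RSL3-R replicate 1 (1.025), 2 (1.013) or 3 (1.036). Up to 20.7% of the exonic bases of IL6 lie opposite the antisense gene AC073072.1, which had 1 to 8 counts, and use of strand in the counting is not given in the sources used here.

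LIF (ENSG00000128342, chr22:30240447-30246851, minus strand), the leukemia inhibitory factor, had 63.8, 60.1 and 54.3 CPM in vehicle, 92.4, 114.6 and 109.5 CPM in erastin-R and 94.9, 106 and 94.9 CPM in RSL3-R. Every library of both drug groups was above every vehicle library, and the drug groups overlapped each other. LIF rose by 0.83 on the log2 scale in erastin-R (SE 0.09, adjusted p = 3.51e-06) and by 0.73 in RSL3-R (SE 0.09, adjusted p = 1.33e-05), short of a call in both. The difference between the drug groups was -0.10 (95% interval -0.29 to 0.09, adjusted p = 0.372 by edgeR). Without erastin-R replicate 1 it was -0.19, with an adjusted p of 0.0136.

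IL11 (ENSG00000095752, chr19:55364389-55370463, minus strand) encodes interleukin-11, a family member known for roles in bone, fibrosis and breast cancer metastasis to bone. Its vehicle libraries had 29.2, 26.8 and 23.6 CPM, its erastin-R libraries 97.6, 133 and 131 CPM and its RSL3-R libraries 34.5, 39.1 and 33.4 CPM. The erastin-R values were far above all others, with replicate 1 the lowest of them, and the RSL3-R values were just above those of vehicle with no overlap. IL11 rose 4.55-fold in erastin-R cells (log2 fold change 2.19, SE 0.12, adjusted p = 7.59e-09), the largest increase of the set there, and by 2.32 on the log2 scale without replicate 1. In RSL3-R cells it rose by 0.43 (SE 0.12, adjusted p = 0.0109 by edgeR), but the adjusted p was 0.0596 without vehicle replicate 3 and 0.0570 without RSL3-R replicate 2. The difference between RSL3-R and erastin-R was -1.76 (SE 0.12, adjusted p = 7.04e-08).

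**Figure D2:**
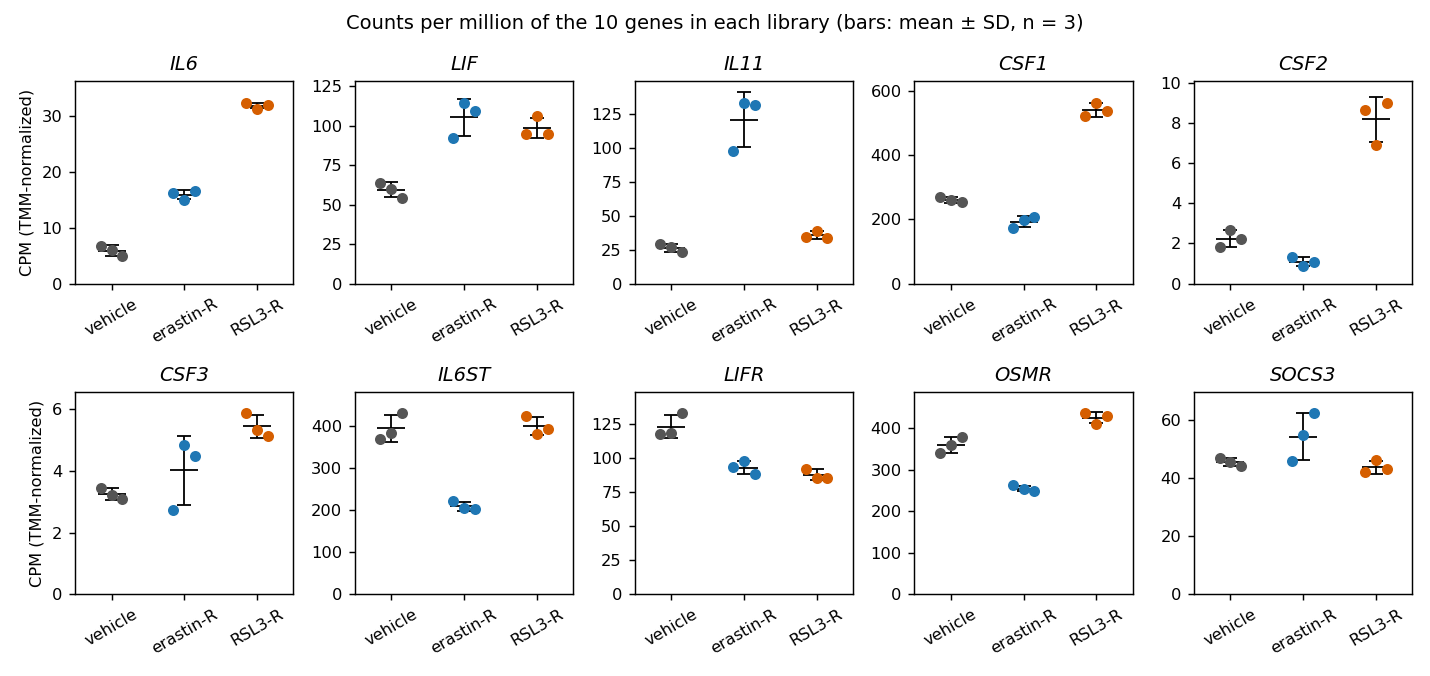
TMM-normalized CPM of each of the 10 genes, 1 panel a gene with its own linear axis from 0. Points are the 3 libraries of each group (replicates 1 to 3 from left to right) and bars the mean ± SD. IL6 steps up from vehicle to erastin-R to RSL3-R, IL11 is highest in erastin-R, and CSF1 and CSF2 are high in RSL3-R.

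CSF1 (ENSG00000184371, chr1:109910242-109930992, plus strand), the macrophage colony-stimulating factor, had 269, 259.9 and 253 CPM in vehicle, 173, 199 and 208 CPM in erastin-R and 521, 563 and 537 CPM in RSL3-R. The groups did not overlap, and erastin-R lay below and RSL3-R above vehicle. CSF1 fell by 0.43 on the log2 scale in erastin-R (SE 0.07, adjusted p = 0.000132) and rose by 1.05 in RSL3-R (SE 0.07, adjusted p = 3.29e-08). RSL3-R exceeded erastin-R by 1.48 (SE 0.07, adjusted p = 3.10e-09 by edgeR).

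CSF2 (ENSG00000164400, chr5:132073790-132076170, plus strand), the granulocyte-macrophage colony-stimulating factor, had few counts, with 31, 43 and 36 counts in vehicle, 22, 14 and 18 in erastin-R and 134, 111 and 154 in RSL3-R. In CPM these were 1.85, 2.66 and 2.22, then 1.31, 0.891 and 1.09, then 8.64, 6.90 and 9.0. The groups did not overlap and had the order erastin-R, vehicle, RSL3-R. CSF2 fell by 1.02 on the log2 scale in erastin-R (SE 0.25, adjusted p = 0.00319), and the size was under the limit for a call without vehicle replicate 2 (-0.88), without erastin-R replicate 2 (-0.89) and after quantile normalization (-0.92). It rose by 1.87 in RSL3-R (SE 0.19, adjusted p = 2.91e-06). The difference between RSL3-R and erastin-R was 2.88 (SE 0.22, adjusted p = 2.14e-07 by edgeR), the largest of any of the 10 genes in the 3 comparisons.

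CSF3 (ENSG00000108342, chr17:40015361-40017813, plus strand), the granulocyte colony-stimulating factor, had 58, 52 and 50 counts in vehicle, 46, 76 and 74 in erastin-R and 91, 86 and 88 in RSL3-R. In CPM these were 3.46, 3.21 and 3.08, then 2.74, 4.84 and 4.50, then 5.87, 5.35 and 5.14. RSL3-R was above all other libraries, while erastin-R replicate 1 was below and the other two erastin-R libraries above the vehicle range. CSF3 rose by 0.74 on the log2 scale in RSL3-R (SE 0.20, adjusted p = 0.00747 by edgeR). In erastin-R against vehicle the difference was 0.30 (95% interval -0.14 to 0.75, adjusted p = 0.234), and without erastin-R replicate 1 it was 0.52 with an adjusted p of 0.0215. Between RSL3-R and erastin-R it was 0.44 (interval 0.02 to 0.86, adjusted p = 0.0793), with an adjusted p of 0.0402 without erastin-R replicate 2.

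IL6ST (ENSG00000134352, chr5:55935095-55994993, minus strand) encodes gp130, the signalling chain that IL-6, LIF, IL-11 and oncostatin M share. It had 371, 385 and 431 CPM in vehicle, 223, 206 and 203 CPM in erastin-R and 424, 383 and 394 CPM in RSL3-R. Erastin-R lay below every other library, and vehicle and RSL3-R overlapped. IL6ST fell by 0.91 on the log2 scale in erastin-R cells (SE 0.07, adjusted p = 1.40e-07) and was 0.93 higher in RSL3-R than in erastin-R (SE 0.07, adjusted p = 2.14e-07 by edgeR). In RSL3-R against vehicle the difference was 0.02 with an interval of -0.13 to 0.16 (adjusted p = 0.855), and it turned to -0.03 without vehicle replicate 1 and to -0.01 without vehicle replicate 2. About 2.81% of the 50-base words of IL6ST also occur in the pseudogene IL6STP1 or in AC015922.3.

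LIFR (ENSG00000113594, chr5:38474963-38608354, minus strand), the LIF receptor chain, had 117, 118 and 133 CPM in vehicle, 93.1, 97.9 and 87.9 CPM in erastin-R and 92.2, 85.1 and 85.3 CPM in RSL3-R. Both drug groups were below vehicle and overlapped each other. LIFR fell by 0.40 in erastin-R (SE 0.07, adjusted p = 0.000243) and by 0.49 in RSL3-R (SE 0.07, adjusted p = 5.41e-05) on the log2 scale. The difference between the drug groups was -0.09 (95% interval -0.24 to 0.06, adjusted p = 0.325 by edgeR). Of its exonic bases 5.3% lie opposite LIFR-AS1, which had 2 to 27 counts.

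OSMR (ENSG00000145623, chr5:38845858-38945596, plus strand), the oncostatin M receptor chain, had 340, 359 and 379 CPM in vehicle, 263, 253 and 249 CPM in erastin-R and 436, 411 and 429 CPM in RSL3-R. The groups were separate, in the order erastin-R, vehicle, RSL3-R that CSF1 and CSF2 also showed. OSMR fell by 0.50 on the log2 scale in erastin-R (SE 0.06, adjusted p = 7.21e-06), rose by 0.24 in RSL3-R (SE 0.06, adjusted p = 0.00291) and differed by 0.74 between the drug groups (SE 0.06, adjusted p = 3.19e-07 by edgeR). Of its exonic bases 3.19% lie opposite RICTOR, which had 1540 to 2999 counts.

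SOCS3 (ENSG00000184557, chr17:78356778-78360077, minus strand), the inhibitor of gp130 and JAK signalling that STAT3 induces, had 46.7, 45.5 and 44.1 CPM in vehicle, 45.8, 54.7 and 62.1 CPM in erastin-R and 41.9, 46.1 and 42.9 CPM in RSL3-R. The groups overlapped, with 2 of the 3 erastin-R libraries above all others. SOCS3 rose by 0.26 on the log2 scale in erastin-R (SE 0.10, adjusted p = 0.0372) and the difference of RSL3-R from erastin-R was -0.31 (SE 0.10, adjusted p = 0.0151 by edgeR). The rise did not hold in all settings: the adjusted p was 0.0946 after quantile normalization, 0.0690 in a model of the 2 groups only and 0.0510 to 0.202 when any of the 3 vehicle libraries, erastin-R replicate 2 or 3, or RSL3-R replicate 1 or 3 was left out, and 7.65e-05 (log2 fold change 0.36) without erastin-R replicate 1. The difference between the drug groups had an adjusted p of 0.112 after quantile normalization, 0.0592 in the 2-group model, 0.0816 without erastin-R replicate 3, 0.0990 without RSL3-R replicate 1 and 0.0871 without RSL3-R replicate 3. In RSL3-R against vehicle the difference was -0.06 (95% interval -0.27 to 0.15, adjusted p = 0.644), with values of 0.01 after quantile normalization and without RSL3-R replicate 1.

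**Figure D3:**
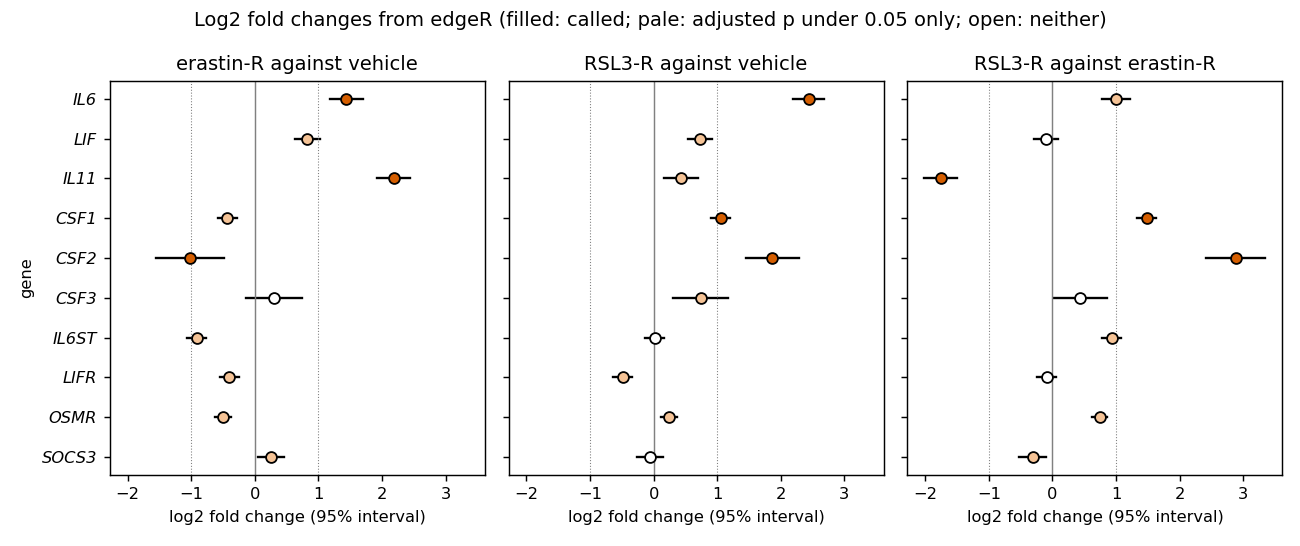
Log2 fold changes of the 10 genes with 95% intervals in the 3 comparisons, from edgeR. Filled points were called, pale points had an adjusted p under 0.05 only and open points neither, and dotted lines mark -1 and 1. IL11 is at 2.19 in erastin-R against vehicle and at 0.43 in RSL3-R against vehicle, and CSF2 is at -1.02 and 1.87.

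By role, the 6 ligands moved as follows. In erastin-R cells 3 rose (IL6, LIF and IL11), 2 fell (CSF1 and CSF2) and CSF3 did not pass. In RSL3-R cells all 6 rose. Of the 3 receptor chains, all fell in erastin-R cells, none by enough for a call, whereas in RSL3-R cells OSMR rose, LIFR fell and IL6ST did not pass. By the same rule 4390 of all 16188 genes rose and 4345 fell in erastin-R cells, and 3850 rose and 4029 fell in RSL3-R cells. Gene coordinates here are those of the files, on GRCh38. The comparisons with vehicle share the DMSO libraries, so their values are set side by side and not correlated.

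The partner genes of the pathway were read from 7 lists with 71 genes, of which 60 were tested. In erastin-R against vehicle 10 of the 60 were called higher and 2 lower, in RSL3-R against vehicle 3 and 2, and in RSL3-R against erastin-R 3 and 3. The shares of all genes called higher and lower were 6.70% and 6.66%, 6.02% and 4.08%, and 6.86% and 3.48% in that order. The lists were chosen with earlier results of these data known, so none of these counts is read as particular to the pathway. Of the 10 genes called higher in erastin-R against vehicle, 6 came from the list of genes known to respond to STAT3. The same shares stand beside the counts of each list below. The 5 calls of RSL3-R against vehicle became 8 without vehicle replicate 3, and the 6 of RSL3-R against erastin-R became 3 without erastin-R replicate 3. Among the remaining ligands 5 of 11 were tested. CTF1, the gp130 ligand cardiotrophin-1, rose by 1.24 on the log2 scale in erastin-R (adjusted p = 0.000134 by edgeR), where its libraries had 11.85, 21.2 and 22.4 CPM. CNTF, ciliary neurotrophic factor, fell by 1.88 in erastin-R (adjusted p = 0.000109, 7 to 40 counts a library). In RSL3-R CTF1 also rose, by 0.86 (adjusted p = 0.00295), and CNTF also fell, by 0.72 (adjusted p = 0.0343), both short of a call. KITLG, the stem cell factor, fell by 1.75 in RSL3-R (adjusted p = 3.46e-06 by edgeR) and by 0.98 in erastin-R (adjusted p = 0.000276), short of a call in erastin-R. Between the drug groups CNTF was higher in RSL3-R by 1.16 (adjusted p = 0.00732) and EBI3, a subunit of interleukin-27, by 1.59 (adjusted p = 0.0155, 4 to 25 counts). OSM, the ligand of OSMR, had 0 to 3 counts a library and was not tested.

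Of the 9 receptors beyond IL6ST, LIFR and OSMR, 6 were tested. CSF1R, the receptor of CSF1, had 176, 155 and 119 counts in vehicle, 35, 34 and 30 in erastin-R and 29, 42 and 37 in RSL3-R. Both drug groups lay below vehicle. CSF1R fell by 2.17 on the log2 scale in erastin-R (SE 0.19, adjusted p = 5.77e-07) and by 2.04 in RSL3-R (SE 0.19, adjusted p = 1.05e-06 by edgeR), opposite in direction to CSF1 in RSL3-R cells. CSF2RB, the signalling chain for CSF2, had 1 to 11 counts and CSF3R, the receptor of CSF3, 0 to 5 counts, and neither was tested. CSF2RA, IL6R and IL11RA, the binding receptors of CSF2, IL-6 and IL-11, were tested and called in no comparison. In RSL3-R CSF2RA rose by 0.84 and IL11RA by 0.61, and in erastin-R IL6R rose by 0.61. Their other comparisons with vehicle did not pass. IL31RA, which pairs with OSMR to bind interleukin-31, was 1.02 higher in RSL3-R than in erastin-R (adjusted p = 1.05e-06). IL27RA, which with IL31RA had the highest FPKM of that list averaged over the 3 groups, was called in no comparison, with log2 fold changes of -0.32, 0.15 and 0.47 in the order used above.

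Of the 10 kinases and STATs only JAK3 was called, at 2.18 in erastin-R (adjusted p = 0.00227 by edgeR) and 2.02 in RSL3-R (adjusted p = 0.00483), from 4 to 29 counts a library. JAK1 and STAT2 had the highest FPKM of that list when averaged over the 3 groups, though not in vehicle alone, and neither was called. JAK1, a kinase that gp130 uses, rose by 0.21 in erastin-R (adjusted p = 0.0220) and 0.59 in RSL3-R (adjusted p = 1.05e-05). Of 14 feedback genes 1 was called: CISH, a SOCS family member, rose by 1.40 in erastin-R (adjusted p = 0.00732 by edgeR, 5 to 45 counts). None of the 4 genes of the list for receptor and ligand shedding was called in any comparison.

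**Figure D4:**
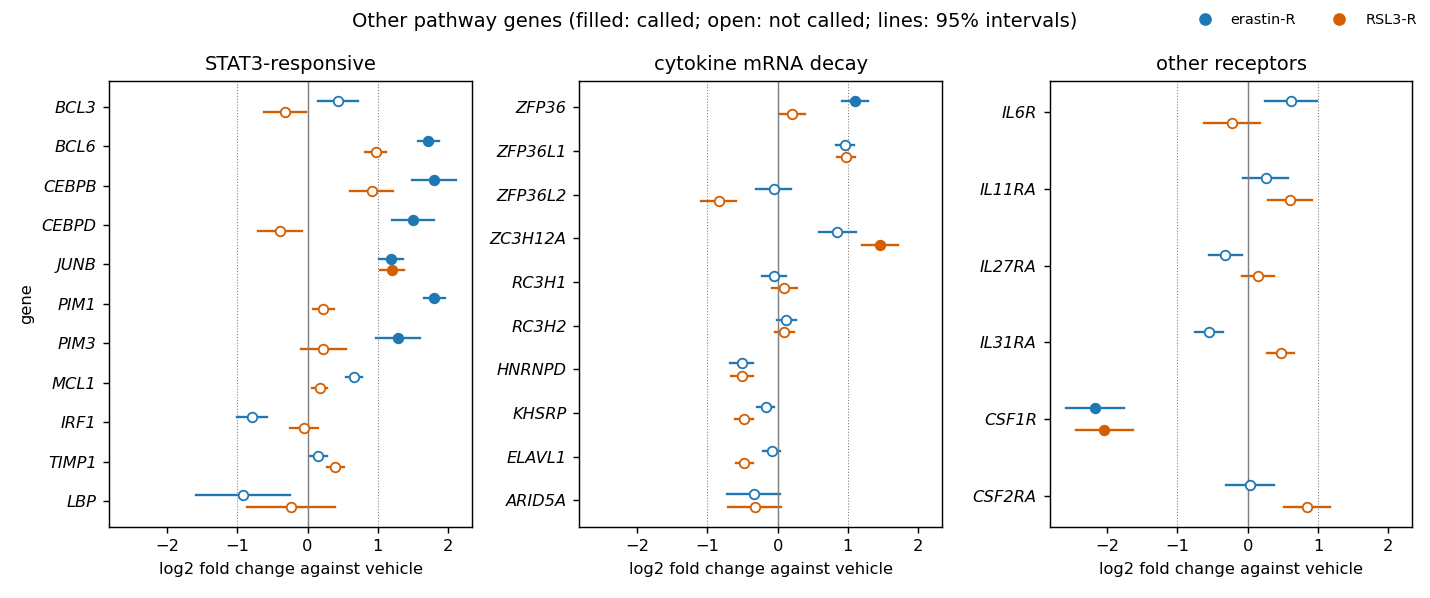
Log2 fold changes against vehicle, with 95% intervals, of the tested genes of 3 lists in erastin-R (blue) and RSL3-R (orange); filled points were called and dotted lines mark -1 and 1. In the STAT3-responsive list 6 genes are called in erastin-R and 1 in RSL3-R, and CSF1R is called lower in both.

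The list of genes known to respond to STAT3, chosen with earlier results of these data known, had the most calls in erastin-R cells. In erastin-R against vehicle 6 of the 11 tested were called higher and 0 lower, beside 6.70% and 6.66% of all genes. The list median was 1.19 beside 0.00 over all genes. By adjusted p alone 9 of the 11 rose and 2 fell there: IRF1, an interferon response factor, by 0.79 (adjusted p = 1.23e-05) and LBP, the lipopolysaccharide-binding protein, by 0.92 (adjusted p = 0.0226 by edgeR). In RSL3-R against vehicle 1 was called higher and 0 lower (median 0.23), beside 6.02% and 4.08% of all genes. By adjusted p alone 6 of the 11 rose and 1 fell in that comparison. In RSL3-R against erastin-R 0 were called higher and 3 lower (median -0.75), beside 6.86% and 3.48% of all genes. PIM1, a survival kinase, had 77.4, 72.0 and 72.5 CPM in vehicle, 238, 266 and 270 CPM in erastin-R and 81.0, 88.9 and 89.4 CPM in RSL3-R, so that the erastin-R libraries stood far above the rest. It rose by 1.80 in erastin-R (SE 0.07, adjusted p = 4.20e-10 by edgeR) and the difference of RSL3-R from erastin-R was -1.58 (adjusted p = 1.95e-09). CEBPB, CEBPD, BCL6 and PIM3 rose by 1.80, 1.496, 1.72 and 1.29 in erastin-R. Replicate 1 was lowest there for CEBPB (275 against 453 and 445 CPM), CEBPD (84.45 against 122 and 130) and PIM3 (124 against 212.5 and 201), but not for BCL6. In RSL3-R BCL6 rose by 0.97 (adjusted p = 9.9e-08 by edgeR) and CEBPB by 0.91 (adjusted p = 0.000119), short of a call. CEBPD fell by 0.40 in RSL3-R (adjusted p = 0.0356), and PIM3 did not pass (adjusted p = 0.226). The differences of RSL3-R from erastin-R were -1.89 for CEBPD and -1.07 for PIM3. JUNB, an AP-1 subunit, was called in both, at 1.19 in erastin-R and 1.20 in RSL3-R. These genes also respond to other pathways, and phosphorylated STAT3 was not measured in these files. SOCS3, which STAT3 also induces, is one of the 10 members and was not in this list. Its rise in erastin-R was 0.26 and did not hold in all settings. In RSL3-R it differed from vehicle by -0.06 (adjusted p = 0.644 by edgeR). STAT3 RNA itself differed from vehicle by 0.02 in erastin-R (adjusted p = 0.747) and fell by 0.17 in RSL3-R (adjusted p = 0.0138).

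Of the 10 genes for cytokine mRNA decay, 1 was called in each comparison with vehicle. ZFP36, the AUUUA-binding decay factor tristetraprolin, rose by 1.10 in erastin-R (SE 0.09, adjusted p = 1.83e-07) and differed from vehicle by 0.20 in RSL3-R (adjusted p = 0.0707 by edgeR). ZC3H12A, the ribonuclease Regnase-1 that degrades IL6 mRNA, rose by 1.46 in RSL3-R (SE 0.12, adjusted p = 3.18e-07) and by 0.85 in erastin-R (adjusted p = 5.36e-05). ZFP36L1 rose by 0.96 and 0.97 (adjusted p = 2.23e-08 and 1.96e-08), under the limit for a call. Its level was 45.5 FPKM in vehicle, below the 74.9 FPKM of the decay factor KHSRP, and 88.5 and 89.3 FPKM in erastin-R and RSL3-R, above the 66.3 and 53.9 FPKM of KHSRP.

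The genes most like CSF2, IL6 and IL11 in log2 CPM over the 9 libraries were sought among 16187 genes, as a description, since the 9 points fall into 3 groups that any gene with the same group means would follow. For CSF2 these were HBEGF, an EGF receptor ligand (r = 0.995), GPR17 (0.994) and APOL6 (0.992). For IL6 they were AARS, the alanyl-tRNA synthetase (0.996), ABCC3, a multidrug resistance transporter (0.995), and CHAC1, a glutathione-degrading enzyme (0.994). For IL11 they were CSNK1E (0.998), AMPD2 (0.997) and CUL7 (0.996).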

How the data were processed

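Counts and FPKM of 9 RNA-seq libraries were used, with groups taken from the labels. Per the labels and the study's methods, poly(A) RNA was selected and libraries were made with a NEBNext Ultra kit, and the submitters' processing notes name HISAT2 2.0.5 and featureCounts 1.5.0-p3. The authors deposited raw read counts per gene, not normalized, from uniquely mapped exonic reads, and FPKM values, which the authors made from those counts and gene lengths. Coordinates of all 58735 genes were those of GENCODE on GRCh38. Use of strand in counting was not given in the sources used here.

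Tests on these counts used edgeR 4.0.16 in R 4.3.3 (TMM, filterByExpr, quasi-likelihood test, 1 model of all 9 libraries, no covariate), with Benjamini-Hochberg adjustment over 16188 genes. A call needed an adjusted p under 0.05 and a log2 fold change at or beyond 1 in size, the threshold in a supplementary figure legend of the study. The study's methods text names a p value without saying that it was adjusted. The study names Cufflinks, which needs reads. Errors are the SE from the F statistic, with 95% intervals. Variation between replicates was 8.56% (square root of the common dispersion), and the intervals cover these libraries only. The script was tested on simulated data.

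The members and gene lists were chosen with earlier results of these data known. All members were named, and of the other lists each called gene or the 2 with the highest FPKM averaged over groups could be named; like genes were named for the 3 members with the largest fold changes. STAT3, OSM, CSF2RA, CSF2RB, CSF3R, IL6R, IL11RA, IRF1 and LBP fall outside this rule and were added after their values were seen. Alternatives were no filter, RLE scaling, DESeq2 1.42.0, quantile normalization with limma 3.58.1, a 2-group model, a replicate block, leaving out each library, and no minimum fold change. No 2 libraries agreed within counting error. Promoters came from the RefSeq table and UTRs from the GENCODE transcripts. Python 3.11.15 drew the figures with matplotlib 3.10.9.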

Additional observations from a re-analysis of the deposited data

Results flagged for a closer look

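CSF1, CSF2 and OSMR moved in opposite directions from vehicle under the 2 drugs, with all 3 libraries of each drug group on their own side of all vehicle libraries. A gene was flagged only if it passed edgeR's test in opposite directions against vehicle and also passed between the drug groups. Passing between the drug groups was thus a condition of the flag. RSL3-R exceeded erastin-R by 1.48 on the log2 scale for CSF1 (adjusted p = 3.10e-09), by 2.88 for CSF2 (adjusted p = 2.14e-07) and by 0.74 for OSMR (adjusted p = 3.19e-07). Without erastin-R replicate 1, the library that stood apart, these differences were 1.41, 3.03 and 0.76.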

How the results depend on the processing

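Over the alternatives, 430 member values kept their direction and their side of the call, 3 lost a call, 11 gained one and 6 changed sign. The lost calls were those of CSF2 in erastin-R against vehicle (-0.92 after quantile normalization, -0.88 without vehicle replicate 2, -0.89 without erastin-R replicate 2), and the gained calls those of IL6 in RSL3-R against erastin-R (up to 1.04). Values that changed sign were all near 0. In RSL3-R against vehicle they were IL6ST without vehicle replicate 1 (-0.029) or 2 (-0.006; up to 0.079 without other libraries), and SOCS3 after quantile normalization (0.007) or without RSL3-R replicate 1 (0.006; down to -0.101 without other libraries). In RSL3-R against erastin-R they were LIF (0) and LIFR (0.004) after quantile normalization.

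With no minimum fold change, calls in erastin-R against vehicle, RSL3-R against vehicle and RSL3-R against erastin-R numbered 9, 8 and 7 members, 44, 36 and 39 other pathway genes, and 8735, 7879 and 7969 of all genes, against 2162, 1635 and 1674 with it. Quantile normalization gave 8 other pathway genes in RSL3-R against vehicle in place of 5, and leaving out libraries gave 5 to 8 there (8 without vehicle replicate 3) and 3 to 7 in RSL3-R against erastin-R (3 without erastin-R replicate 3). The causes were not tested. Quantile normalization also moved the share of calls that were higher from 66.4% to 56.1% in RSL3-R against erastin-R. DESeq2 called 2100, 1567 and 1609 genes.

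With replicate number as a block the counts of members called were 3, 3 and 4, since IL6 reached 1.001 in RSL3-R against erastin-R, and no other member call changed. Same-numbered libraries had deviations that correlated at -0.0904 to 0.0518 (9 pairs). These values showed no pairing by number, but so few libraries cannot exclude one. Depth limits CSF2 and CSF3 most, at 14 to 154 and 46 to 91 counts a library.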
